A study of Mus musculus with 21 samples.

Results

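The genes described are 8 markers of the epicardium and of mesothelium in general, out of 18762 genes in the deposited table of FPKM, fragments scaled to transcript length and to the mapped total of the library. They are Upk3b, Upk1b, Msln, Wt1, Tcf21, Tbx18, Aldh1a2 and Krt19, taken by symbol, and each symbol stood on a single row. All 8 passed the filter for testing, at least 1 FPKM in at least 3 of the 21 libraries, and so did 12433 genes in all. The libraries hold RNA from the heart apex of ICR mice at postnatal day 7, after removal of the ventricular tip at 1 day of age, with 3 libraries in each of 7 groups. A group given isoproterenol, an agonist of β-adrenergic receptors, stands beside those given amiodarone, which blocks potassium and other channels, metoprolol or propranolol, both β-blockers, lidocaine, a sodium channel blocker, and ivabradine, which blocks the pacemaker current. Each drug was given under the skin on 7 consecutive days, and every animal, controls included, had the resection. The control group carries apical resection as its sole treatment in the labels, which give neither doses nor any injection of the controls, and do not state how many animals stand behind the 3 libraries of a group. The p-values therefore describe the spread of these libraries, which may be technical.

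The epicardium is the mesothelial sheet that covers the heart. It is a simple epithelium with keratins inside its cells and uroplakin-family proteins at its surface. In the embryo some of its cells leave the sheet and become fibroblasts and mural cells of the coronary vessels. Upk3b, Upk1b, Msln and Krt19 are called the 4 surface genes below for short, although Krt19 is a keratin of the cytoskeleton. Wt1, Tcf21 and Tbx18 are transcription factors that mark the epicardium and its descendants, and Aldh1a2 makes retinoic acid, a signal that the epicardium sends to the growing myocardium. The epicardium becomes active again after injury in fish and in newborn mice. In these bulk samples, fewer cells of a type and less RNA per cell cannot be told apart.

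Promoters were available for 4 of the 8 genes, Upk3b, Tcf21, Tbx18 and Aldh1a2, in RefSeq's mouse assembly GRCm38.p6, which is not the mm9 build named in the submitters' notes. Of the 4 markers with the smallest p in an F test over the 7 groups, which were Tcf21, Wt1, Aldh1a2 and Upk3b, the 3 found there are shown. They are the marker that lay below the controls in every drug group, the one that varied least and a surface gene. Each is the stretch of 250 bases before the start, 5′ to 3′ on the gene's strand, and capitals mark matches to the letters searched on both strands. For TEAD factors the letters were GGAATG, found in Upk3b on the other strand and so printed as the reverse complement. For the E-box of bHLH factors they were CANNTG, for the zinc-finger factors of the GATA family AGATAA, for SP and KLF factors GGGCGG, and for the basal promoter box named after its bases TATAAA. The Upk3b stretch is chr5:136038246-136038495 on the plus strand, that of Tcf21 chr10:22820144-22820393 on the minus strand, and that of Aldh1a2 chr9:71215539-71215788 on the plus strand.
Tcf21: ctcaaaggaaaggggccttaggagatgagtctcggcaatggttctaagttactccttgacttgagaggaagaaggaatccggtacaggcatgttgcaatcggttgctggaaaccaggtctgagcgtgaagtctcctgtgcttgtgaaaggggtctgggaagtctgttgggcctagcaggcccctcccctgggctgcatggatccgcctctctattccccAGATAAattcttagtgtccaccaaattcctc
Aldh1a2: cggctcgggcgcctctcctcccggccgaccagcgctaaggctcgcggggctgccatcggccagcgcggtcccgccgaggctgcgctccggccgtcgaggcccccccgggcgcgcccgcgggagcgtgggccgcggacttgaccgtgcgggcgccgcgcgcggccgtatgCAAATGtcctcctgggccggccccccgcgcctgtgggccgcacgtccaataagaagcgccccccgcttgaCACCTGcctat
Upk3b: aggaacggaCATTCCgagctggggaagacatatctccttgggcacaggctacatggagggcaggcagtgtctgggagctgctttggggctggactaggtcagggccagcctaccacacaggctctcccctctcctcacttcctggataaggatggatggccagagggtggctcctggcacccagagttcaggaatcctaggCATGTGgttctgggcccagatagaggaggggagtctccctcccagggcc
The Upk3b stretch had 60.8% G and C and 2 CpG, with a TEAD match 241 bases and an E-box 49 bases before the start. The Tcf21 stretch had 52.4% G and C and 5 CpG, with a GATA match 31 bases before the start and no E-box or TEAD match. The Aldh1a2 stretch had 77.6% G and C and 40 CpG, with E-boxes 81 and 11 bases before the start. Over 27025 promoters of the same length the median was 52% G and C, and TEAD letters stood in 12.6%, E-boxes in 66%, GATA letters in 10.3%, SP/KLF letters in 32.9% and TATA letters in 13%. No match overlapped another in the 3 stretches, and none is a measured binding site.

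Summed FPKM ran from 496304 to 552905 per library and 16348 to 16746 genes stood above 0, with no counts from which an absolute depth could be had. The heart muscle gene Myh6 stood between 4618 and 6689 FPKM in all 21 libraries. Some libraries carried transcripts of neighbouring tissue. The lung surfactant gene Sftpc stood at 222 FPKM in amiodarone 2, 9.10 in lidocaine 1 and at most 0.14 elsewhere, the fast skeletal muscle gene Mylpf at 62.7 in control 3, the atrial gene Myl7 at 176 in isoproterenol 3, and the liver gene Alb at 10.8 in propranolol 1. Across the 6 drugs, 24.5% to 30.2% of the genes called in a comparison with control were higher, and 55.0% to 60.3% after each library was rescaled by the median of its ratios to the average library.

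The surface genes Upk3b, Upk1b and Msln were lowest in the controls and highest with amiodarone by group mean, and rose together in the mean of the 6 drug groups. Upk3b, uroplakin 3B, averaged 9.29 ± 1.07 FPKM with amiodarone and 1.77 ± 1.38 FPKM in controls, 5.24 times as much. For Msln, mesothelin, a protein anchored in the mesothelial membrane, it was 10.6 ± 2.31 against 2.37 ± 1.43 FPKM, and for Upk1b, a tetraspanin of the uroplakin family, 2.67 ± 0.50 against 0.60 ± 0.57 FPKM (SD, n = 3 libraries each). Tcf21 went the other way, lower in each of the 18 drug libraries than in all 3 controls. Wt1 was raised with lidocaine and ivabradine, and Krt19 and Tbx18 passed no test in any comparison.

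Upk3b had 2.38, 4.70 and 6.08 FPKM in isoproterenol libraries 1 to 3, 10.2, 9.55 and 8.11 in amiodarone libraries and 4.28, 4.43 and 7.48 in metoprolol libraries. It had 1.62, 6.24 and 11.7 FPKM with propranolol, 5.31, 7.67 and 5.51 with lidocaine and 9.10, 2.62 and 10.9 with ivabradine, against 1.61, 3.23 and 0.48 FPKM in controls 1 to 3. The amiodarone, metoprolol and lidocaine libraries all lay above the highest control, and 15 of the 18 drug libraries did so, the exceptions being isoproterenol 1, propranolol 1 and ivabradine 2. Libraries entirely above the controls were found for 13.0% of all tested genes with amiodarone, 14.7% with metoprolol and 15.2% with lidocaine. In the order of group means, amiodarone was followed by ivabradine, propranolol, lidocaine, metoprolol, isoproterenol and control, and each neighbouring pair overlapped.

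Msln had 4.28, 5.10 and 10.5 FPKM with isoproterenol, 13.2, 9.42 and 9.05 with amiodarone and 5.38, 4.67 and 10.2 with metoprolol. Its values were 1.76, 8.81 and 8.79 FPKM with propranolol, 5.51, 8.43 and 7.75 with lidocaine and 10.6, 3.43 and 14.7 with ivabradine, against 2.48, 3.75 and 0.89 FPKM in controls. Here 16 of 18 drug libraries were above all controls, and the exceptions, propranolol 1 and ivabradine 2, were also low for Upk3b. The isoproterenol, amiodarone, metoprolol and lidocaine libraries lay wholly above the controls for Msln. The same held for 1488 of the 12433 tested genes with isoproterenol, and for 13.0%, 14.7% and 15.2% with amiodarone, metoprolol and lidocaine. Upk1b, at a lower level, had 2.92, 2.09 and 2.99 FPKM with amiodarone and 1.25, 1.27 and 2.27 with metoprolol, against 0.49, 1.22 and 0.10 FPKM in controls. Over the other 4 drug groups Upk1b ran from 0.68 FPKM in propranolol 1 to 2.74 in ivabradine 3. For Upk1b 13 of the 18 drug libraries lay above all controls. Its amiodarone and metoprolol groups did so wholly, as for 13.0% and 14.7% of all tested genes. Krt19, a keratin of simple epithelia, ran from 1.07 FPKM in propranolol 1 to 8.08 in propranolol 3, and the controls had 2.33, 3.63 and 2.52 FPKM. Only amiodarone, at 5.87, 5.92 and 4.83 FPKM, lay wholly above the controls for Krt19, as for 13.0% of all tested genes. The amiodarone change of Krt19 was called without propranolol 1 (adjusted p = 0.026).

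**Figure D1:**
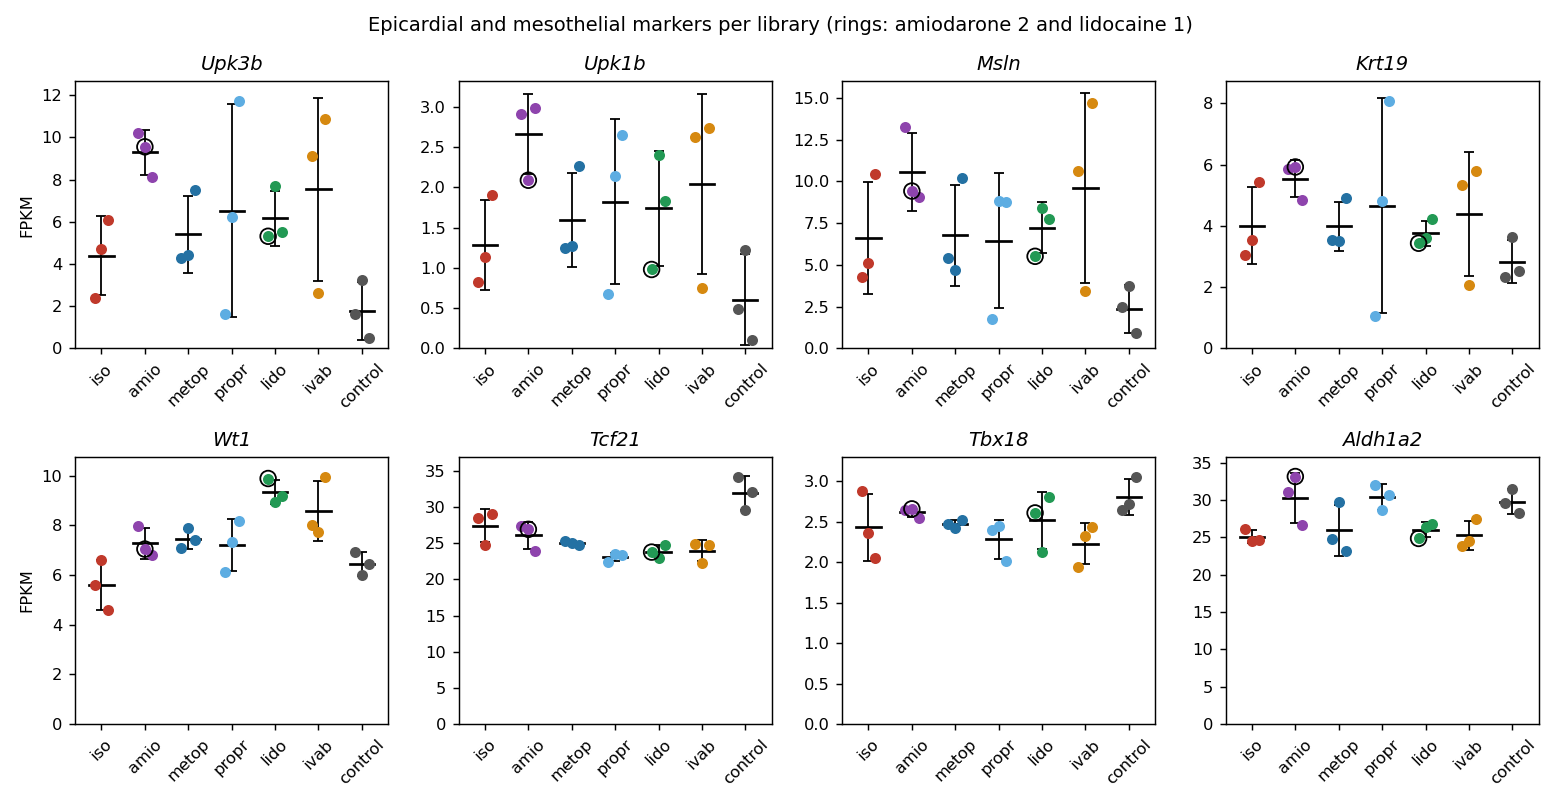
Level (FPKM, linear axes from 0) of the 8 markers in each of 21 libraries, with the group mean (bar) and SD (whiskers, n = 3). The groups are isoproterenol (iso), amiodarone (amio), metoprolol (metop), propranolol (propr), lidocaine (lido), ivabradine (ivab) and control, and rings mark amiodarone 2 and lidocaine 1, the libraries with lung transcripts. Upk3b, Upk1b and Msln spread widely within groups and are lowest in control 3 at 0.48, 0.10 and 0.89 FPKM, while Tcf21 lies between 22.3 and 29.1 FPKM in every drug library and between 29.6 and 34.2 in controls.

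Changes are differences in log2(FPKM + 1), which understate those of low genes, each with its standard error from limma and a p adjusted over all tested genes. Against control, 4 of the 8 markers were called with amiodarone, 3 higher and 1 lower, where 29.0% of all tested genes were called, 8.47% higher and 20.6% lower. Upk3b rose by 2.01 ± 0.49 (adjusted p = 0.0070), Msln by 1.86 ± 0.49 (adjusted p = 0.010) and Upk1b by 1.24 ± 0.32 (adjusted p = 0.0099) with amiodarone, while Krt19 stood 0.78 ± 0.37 higher and missed the threshold (adjusted p = 0.11). With ivabradine 5 of 8 were called, 4 higher and 1 lower, against 27.0% of all genes, 7.91% higher and 19.1% lower. Upk3b (1.58 ± 0.49, adjusted p = 0.024), Msln (1.56 ± 0.49, adjusted p = 0.024) and Upk1b (0.90 ± 0.32, adjusted p = 0.046) were among the 4. With lidocaine 4 of 8 were called, 3 higher and 1 lower, against 37.1% of all genes, 10.6% higher and 26.6% lower, with Upk3b up by 1.48 ± 0.49 (adjusted p = 0.025) and Msln by 1.37 ± 0.49 (adjusted p = 0.035). Single libraries decided several of these calls. Upk3b and Msln missed the threshold with ivabradine without ivabradine 1 (1.37 and 1.40, adjusted p = 0.070 and 0.064) or ivabradine 3 (1.25 and 1.19, adjusted p = 0.11 and 0.12), and with lidocaine without lidocaine 2 (1.34 and 1.26, adjusted p = 0.084 and 0.10). Msln with lidocaine also missed it without lidocaine 3 (1.31, adjusted p = 0.080) or control 1 (1.44, adjusted p = 0.052). Upk1b with ivabradine, close to the threshold, missed it on leaving out any of 12 single libraries (0.66 to 0.90, adjusted p = 0.051 to 0.19).

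With isoproterenol 2 of 8 markers were called, both lower, against 34.2% of all genes, 8.38% higher and 25.8% lower. With metoprolol it was 1 of 8, lower, against 31.4% (9.48% higher, 22.0% lower), and with propranolol 1 of 8, lower, against 26.8% (6.98% higher, 19.8% lower). No surface gene passed in these 3 groups, yet every difference was positive. For Upk3b it was 1.02 with isoproterenol (adjusted p = 0.11), 1.30 with metoprolol (adjusted p = 0.051) and 1.30 with propranolol (adjusted p = 0.058). For Msln it was 1.19, 1.23 and 1.03 (adjusted p = 0.066, 0.061 and 0.12), and for Upk1b 0.54, 0.73 and 0.80 (adjusted p = 0.20, 0.090 and 0.073). Propranolol 1 had the lowest value of its group in all 4 surface genes, and without it the propranolol changes were 1.92 for Upk3b (adjusted p = 0.0094), 1.64 for Msln (adjusted p = 0.021), 1.14 for Upk1b (adjusted p = 0.024) and 0.94 for Krt19 (adjusted p = 0.027). Metoprolol was likewise called for Upk3b on leaving out any of 6 single libraries (1.30 to 1.67, adjusted p = 0.023 to 0.049), namely isoproterenol 1, propranolol 1 or 3, ivabradine 2 or 3, or control 2. Without ivabradine 2 or control 2, propranolol was called for Upk3b (1.30 and 1.66, adjusted p = 0.036 and 0.040) and Upk1b (0.80 and 1.07, adjusted p = 0.046 and 0.043). Without propranolol 1 or ivabradine 2, Msln was called with isoproterenol (adjusted p = 0.033 and 0.041) and metoprolol (adjusted p = 0.030 and 0.038). Whether a drug differed from another in these genes was asked over the 5 anti-arrhythmic groups with an F test, which called none of the 8 markers and 1.06% of all genes. At an unadjusted p under 0.05 the limma F test passed 2 of 8, Aldh1a2 and Wt1, and 12.4% of all tested genes, and no other tool was run.

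In the mean of the 6 drug groups against control, 4 of 8 markers were called, 3 higher and 1 lower, against 45.7% of all genes, 11.6% higher and 34.0% lower. Upk3b was up by 1.45 ± 0.38 (adjusted p = 0.0048), Msln by 1.37 ± 0.37 (adjusted p = 0.0065) and Upk1b by 0.84 ± 0.25 (adjusted p = 0.011). Control 3, which had the lowest value of all 21 libraries for these 3 genes, also had the most skeletal muscle RNA. Its 5 muscle markers summed to 134 FPKM, against 24.6 and 42.2 in the other controls and 8.91 to 72.5 in drug libraries. Amiodarone 3, the drug library at 72.5 FPKM, held the highest Upk1b of all 21 libraries, 2.99 FPKM. It was also the lowest of the amiodarone libraries for Upk3b (8.11 FPKM), Msln (9.05 FPKM) and Krt19 (4.83 FPKM). Without control 3 the mean change was 1.06 for Upk3b (adjusted p = 0.064), 1.00 for Msln (adjusted p = 0.077) and 0.60 for Upk1b (adjusted p = 0.11). Of the 17 calls over 8 markers and 6 drugs, 9 were kept without control 3, among them Upk3b (1.63, adjusted p = 0.036) and Upk1b (1.00, adjusted p = 0.049) with amiodarone. Msln missed narrowly there (1.49, adjusted p = 0.051). Without control 3 the changes with ivabradine were 1.19 for Upk3b and 1.20 for Msln (adjusted p = 0.12 for both), and with lidocaine 1.09 and 1.00 (adjusted p = 0.12 and 0.16). The isoproterenol changes were then 0.63 for Upk3b and 0.30 for Upk1b (adjusted p = 0.39 and 0.55), and the propranolol change of Msln 0.66 (adjusted p = 0.39). The skeletal muscle level moved with control 3, and the part of muscle RNA in these changes was not tested.

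**Figure D2:**
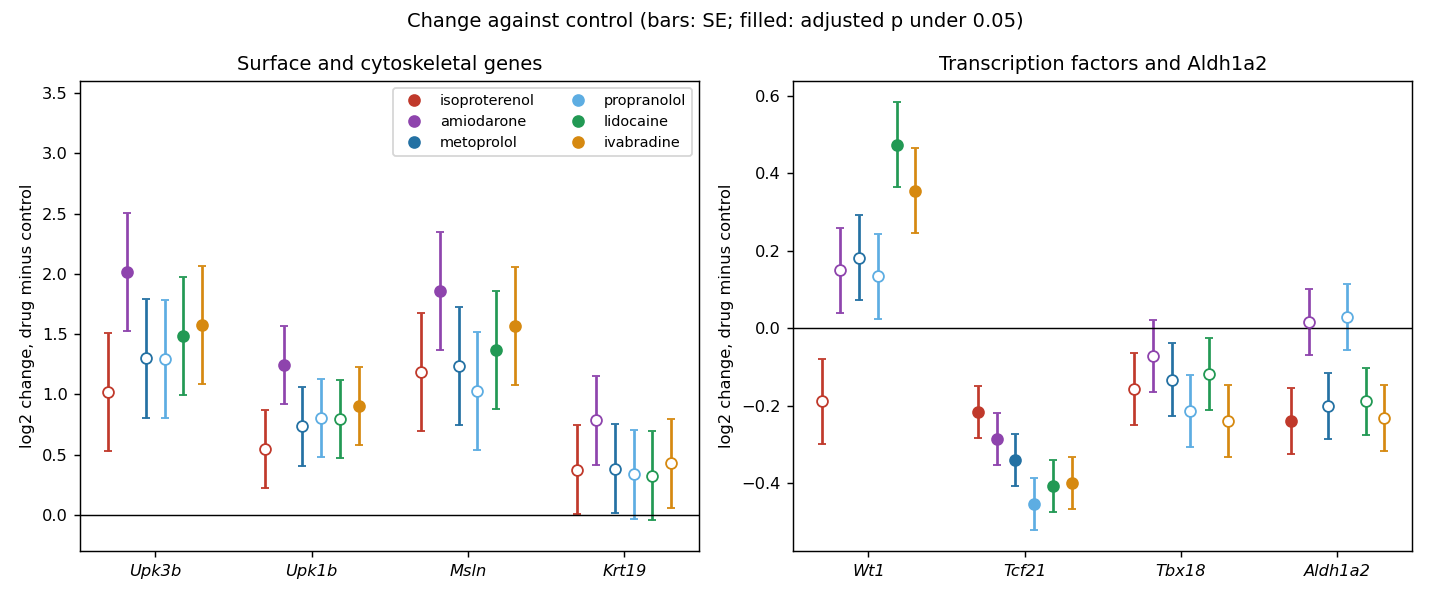
Change of each marker against control for the 6 drugs (log2 scale of FPKM + 1, drug minus control; points are estimates, bars are standard errors, filled points have an adjusted p under 0.05). In the left panel the surface genes lie above 0 with every drug and reach 2.01 for Upk3b with amiodarone, and in the right panel, on a narrower axis, Tcf21 is filled and below 0 with every drug and Wt1 is filled with lidocaine and ivabradine alone.

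Tcf21, a bHLH transcription factor of the epicardium and of cardiac fibroblasts, had 28.5, 24.8 and 29.1 FPKM with isoproterenol, 27.4, 26.9 and 23.9 with amiodarone and 25.3, 25.0 and 24.7 with metoprolol. It had 22.5, 23.5 and 23.3 FPKM with propranolol, 23.8, 22.9 and 24.8 with lidocaine and 24.9, 22.3 and 24.8 with ivabradine, against 34.2, 29.6 and 32.1 FPKM in controls. No drug library reached the lowest control, which was so for 9.5% of all tested genes. The fall was by 0.45 ± 0.07 with propranolol (adjusted p = 0.00024), 0.41 ± 0.07 with lidocaine (adjusted p = 0.00025), 0.40 ± 0.07 with ivabradine (adjusted p = 0.00046) and 0.34 ± 0.07 with metoprolol (adjusted p = 0.0017). With amiodarone it fell by 0.28 ± 0.07 (adjusted p = 0.0055) and with isoproterenol by 0.21 ± 0.07 (adjusted p = 0.019), and in the mean of the 6 by 0.35 ± 0.05 (adjusted p = 6.4e-05). After rescaling, Tcf21 remained lower with every drug and the isoproterenol call was lost (-0.11, adjusted p = 0.22), as it was without isoproterenol 2 (-0.15, adjusted p = 0.11), control 1 (-0.17, adjusted p = 0.087) or control 3 (-0.21, adjusted p = 0.052). Among the group means only the step between isoproterenol and control separated neighbours without overlap.

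Wt1, a zinc-finger transcription factor of mesothelium, was lowest with isoproterenol at 5.59, 6.59 and 4.57 FPKM and highest with lidocaine at 9.88, 8.94 and 9.18 FPKM, against 6.94, 5.98 and 6.43 FPKM in controls. It had 7.99, 7.74 and 9.96 FPKM with ivabradine, 7.97, 7.04 and 6.80 with amiodarone, 7.07, 7.87 and 7.39 with metoprolol and 6.13, 7.31 and 8.18 with propranolol. All libraries of the lidocaine, ivabradine and metoprolol groups lay above the controls, as for 15.2%, 10.1% and 14.7% of all tested genes. Wt1 rose by 0.47 ± 0.11 with lidocaine (adjusted p = 0.0032) and by 0.35 ± 0.11 with ivabradine (adjusted p = 0.023). The ivabradine call was lost without ivabradine 3 (0.25, adjusted p = 0.13), control 2 (0.31, adjusted p = 0.088) or control 3 (0.35, adjusted p = 0.057). The other 4 drugs gave differences of -0.19 (isoproterenol) to 0.18 (metoprolol), with adjusted p of 0.19 or more.

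Tbx18, a T-box factor of the epicardium, stood between 1.94 and 2.88 FPKM in drug libraries and at 2.64, 2.72 and 3.06 FPKM in controls. The metoprolol, propranolol and ivabradine libraries lay wholly below the controls, as for 31.8%, 31.2% and 25.8% of all tested genes, and 14 of 18 drug libraries did. The differences ran from -0.24 (ivabradine, adjusted p = 0.064) to -0.07 (amiodarone, adjusted p = 0.58), all short of the threshold, though ivabradine passed it without isoproterenol 1 (adjusted p = 0.044). Of the 3 transcription factors, then, Tcf21 was lower with 6 of 6 drugs, Wt1 higher with 2 of 6 and Tbx18 called with none. The 6 comparisons share the same controls, and the share of all genes called with several drugs at once was not computed.

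Isoproterenol and the mean of the 5 anti-arrhythmic groups differed in 2 of the 8 markers, against 22.8% of all tested genes. Wt1 was 0.45 ± 0.08 lower with isoproterenol (adjusted p = 0.0011), where the 3 isoproterenol libraries ran from 4.57 to 6.59 FPKM and the 15 others from 6.13 to 9.96 FPKM. Tcf21 was 0.16 ± 0.05 higher with isoproterenol (adjusted p = 0.030), at 24.8 to 29.1 FPKM against 22.3 to 27.4 FPKM. Both ranges overlapped, and isoproterenol 3, which carried atrial RNA, had the lowest Wt1 of all. Without isoproterenol 3 the Tcf21 difference missed the threshold (0.12, adjusted p = 0.21), as it did without isoproterenol 1 (0.13, adjusted p = 0.15). Over all 7 groups the F test called Tcf21 (adjusted p = 0.00076), Wt1 (adjusted p = 0.0027) and Aldh1a2 (adjusted p = 0.025), against 39.9% of all genes, and left Upk3b just outside (adjusted p = 0.055), which passed without propranolol 1, propranolol 3, ivabradine 2 or control 2 (adjusted p = 0.013 to 0.047). The Aldh1a2 call was lost without amiodarone 2 and lidocaine 1 (adjusted p = 0.052) and without the 5 libraries with transcripts of other tissues (adjusted p = 0.20), and the Wt1 call without those 5 (adjusted p = 0.051).

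Aldh1a2, the retinaldehyde dehydrogenase of the epicardium, varied least of the 8, by 1.43 times between its lowest and highest library. It had 26.1, 24.6 and 24.7 FPKM with isoproterenol, 24.9, 26.5 and 26.8 with lidocaine and 23.8, 24.5 and 27.5 with ivabradine, against 29.7, 31.6 and 28.3 FPKM in controls. These 3 groups lay wholly below the controls, as for 32.8%, 33.3% and 25.8% of all tested genes with isoproterenol, lidocaine and ivabradine. It had 24.8, 29.8 and 23.2 FPKM with metoprolol, 31.0, 33.2 and 26.6 with amiodarone and 32.1, 28.7 and 30.7 with propranolol, and these overlapped the controls. Aldh1a2 fell by 0.24 ± 0.09 with isoproterenol (adjusted p = 0.038), and no other drug passed (adjusted p = 0.051 to 0.89). The call was lost on rescaling (-0.14, adjusted p = 0.23) and without isoproterenol 2, isoproterenol 3, control 1 or control 2 (-0.20 to -0.24, adjusted p = 0.067 to 0.14). With ivabradine, at -0.23, Aldh1a2 passed without amiodarone 2 or 3 or metoprolol 2 or 3 (adjusted p = 0.028 to 0.045) and without ivabradine 3 (-0.29, adjusted p = 0.037). With metoprolol it passed without metoprolol 2 (-0.30, adjusted p = 0.014).

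The genes around Aldh1a2 in the retinoic acid pathway numbered 17, of which 12 were tested. In the mean of the drug groups 2 rose and 5 fell, with a median change of -0.07, beside 11.6% higher, 34.0% lower and a median of -0.09 over all genes. Rarg, a retinoic acid receptor, fell in all 6 groups, where single comparisons called 19.1% (ivabradine) to 26.6% (lidocaine) of all tested genes lower. Its fall was by 0.83 ± 0.08 with lidocaine (9.89 ± 0.80 against 18.3 ± 0.67 FPKM in controls, adjusted p = 1.7e-06) and by 0.31 ± 0.08 with isoproterenol (adjusted p = 0.0051). Dhrs3, which reduces retinaldehyde back to retinol, fell with propranolol (-0.50 ± 0.10, adjusted p = 0.0023), amiodarone (-0.42, adjusted p = 0.0064) and lidocaine (-0.27, adjusted p = 0.045). Rara, another receptor, fell with amiodarone (-0.23, adjusted p = 0.030) and metoprolol (-0.22, adjusted p = 0.036). Rxra, the partner of these receptors, rose with isoproterenol (0.24, adjusted p = 0.0060), amiodarone (0.24, adjusted p = 0.0091), metoprolol (0.20, adjusted p = 0.022) and propranolol (0.18, adjusted p = 0.041). Aldh1a1, a second retinaldehyde dehydrogenase, rose with isoproterenol (0.32, adjusted p = 0.039) and ivabradine (0.36, adjusted p = 0.028). Rxrb and Rarb were not called with any drug, at -0.10 to 0.19.

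The 4 surface genes and the other 4 markers differed in how they spread. Between lowest and highest library Upk1b varied 29.9 times, Upk3b 24.4 times, Msln 16.5 times and Krt19 7.55 times, against 2.18 for Wt1, 1.58 for Tbx18, 1.54 for Tcf21 and 1.43 for Aldh1a2. Control 3 was the lowest library of the first 3, and without it they varied 6.10, 7.29 and 8.35 times. The SD within groups on the log2 scale was 0.69, 0.45, 0.68 and 0.52 for Upk3b, Upk1b, Msln and Krt19, against 0.14, 0.08, 0.11 and 0.11 for Wt1, Tcf21, Tbx18 and Aldh1a2. Differences between groups took 82.1% of the variance of Tcf21 and 74.7% of that of Wt1, and 51.7% of that of Upk3b and 20.2% of that of Krt19. The summed level of the 4 surface genes was 5.13 FPKM in propranolol 1 and 31.3 in propranolol 3, and 8.87 FPKM in ivabradine 2 and 34.1 in ivabradine 3. In controls it was 6.91, 11.8 and 3.99 FPKM.

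Library by library the surface genes kept step. Likeness was measured as the root mean square difference between standardised log2 profiles over the 21 libraries, where 0 means identical shape, and it describes genes that share the same libraries. Among 12433 tested genes the nearest to Upk3b was Lrrn4 (0.27), a leucine-rich repeat protein used as a mesothelial marker, followed by Msln (0.29) and Upk1b (0.29). For Msln they were Upk3b (0.29), Lrrn4 (0.32) and Upk1b (0.32), for Upk1b Upk3b (0.29), Lrrn4 (0.30) and Msln (0.32), and for Krt19 Rspo1 (0.44), Upk3b (0.53) and Msln (0.55). Deviations from group means, which remove the drugs, gave Lrrn4 (0.24), Upk1b (0.34) and Upk3b (0.35) for Msln, Lrrn4 (0.32), Msln (0.35) and Krt7 (0.39) for Upk3b, and Msln (0.34), Lrrn4 (0.37) and Efemp1 (0.39) for Upk1b. Msln held 0.75 to 1.85 times the FPKM of Upk3b in every library (median 1.26) and Upk1b 0.18 to 0.42 times (median 0.29). Krt19 ranged from 0.47 to 5.25 times, the highest in control 3, and from 0.47 to 1.45 times in the other 20 libraries.

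**Figure D3:**
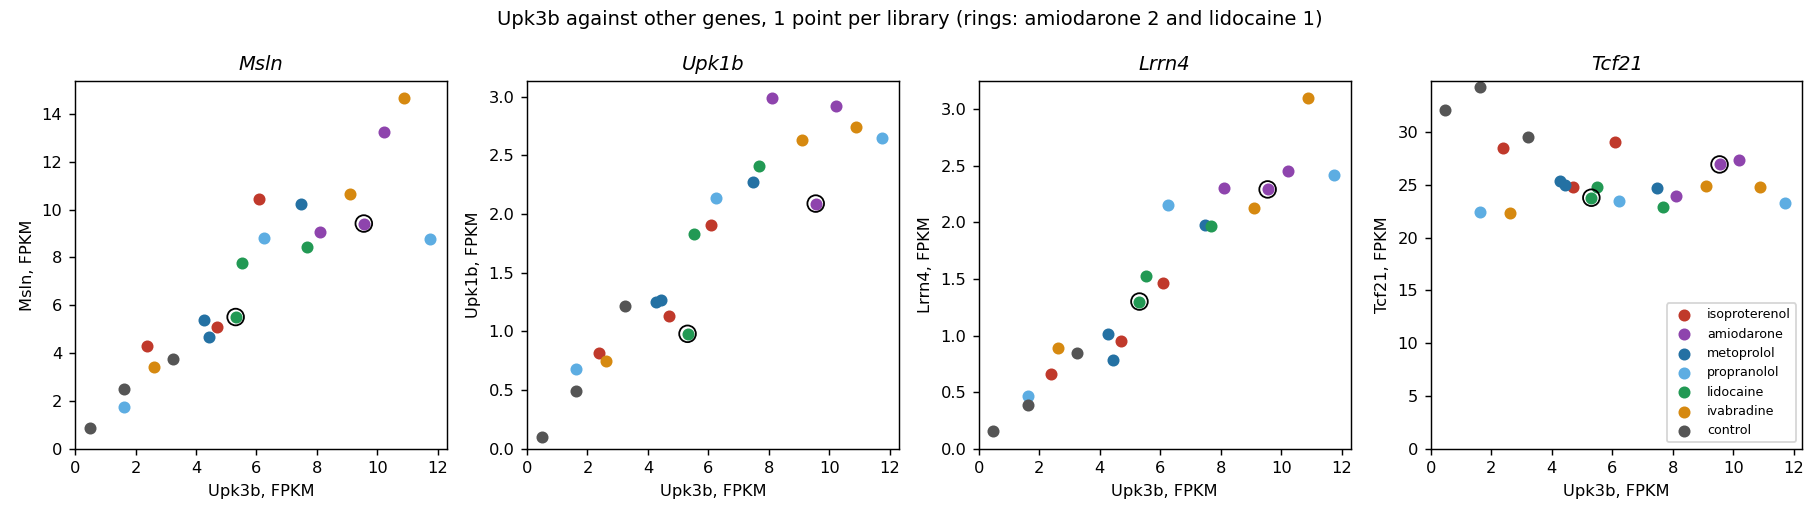
Msln, Upk1b, Lrrn4 and Tcf21 (FPKM, vertical) against Upk3b (FPKM, horizontal), 1 point per library, coloured by group, with rings on amiodarone 2 and lidocaine 1. The first 3 genes climb with Upk3b over all libraries, control 3 at the low end with 0.48 FPKM of Upk3b, whereas Tcf21 stays between 22.3 and 29.1 FPKM in the drug libraries at any level of Upk3b.

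The transcription factors had other neighbours. Wt1 ranked 559th from Upk3b (1.06), and its nearest genes were Ifrd1 (0.47), Emd (0.51) and Tnfaip1 (0.52). Tcf21 lay at 1.71 from Upk3b, and its nearest were Gmcl1 (0.45), Map3k12 (0.47) and Csk (0.48). Tbx18 was closest to Nfatc1 (0.52), Med12 (0.55) and Adarb1 (0.57), and Aldh1a2 to Pola2 (0.66), Tgm2 (0.68) and Rfc3 (0.69). With group means removed the nearest were Chtf18 (0.61), Adat3 (0.68) and Dbnl (0.70) for Wt1, 1810010H24Rik (0.50), Slc35c2 (0.64) and Aqp8 (0.67) for Tcf21, Ttll5 (0.40), Prex1 (0.45) and Pnpla6 (0.47) for Tbx18, and Phka2 (0.65), Atoh8 (0.66) and Apeh (0.66) for Aldh1a2. No marker of the 8 was among the 3 nearest of any of these 4.

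Other mesothelial genes, 18 in a list of which 15 were tested, divided in the same way. Called higher and lower were 5 and 1 with amiodarone, 6 and 0 with ivabradine, 3 and 1 with lidocaine, 2 and 1 with propranolol, 2 and 0 with isoproterenol and 1 and 1 with metoprolol. Over all tested genes the shares called higher and lower were 8.47% and 20.6% with amiodarone, 7.91% and 19.1% with ivabradine, 10.6% and 26.6% with lidocaine, 6.98% and 19.8% with propranolol, 8.38% and 25.8% with isoproterenol and 9.48% and 22.0% with metoprolol. Their median change ran from 0.24 with metoprolol to 0.49 with amiodarone, beside -0.08 to -0.10 over all genes. Lrrn4 rose with amiodarone (2.35 ± 0.09 against 0.47 ± 0.35 FPKM in controls, 1.22 ± 0.29, adjusted p = 0.0067), ivabradine (1.01, adjusted p = 0.018) and lidocaine (0.84, adjusted p = 0.032). Efemp1, a fibulin of the extracellular matrix, rose with amiodarone (3.20 ± 0.37 against 0.82 ± 0.39 FPKM in controls, 1.22 ± 0.27, adjusted p = 0.0040), ivabradine (1.12, adjusted p = 0.0060), lidocaine (0.91, adjusted p = 0.015) and propranolol (0.83, adjusted p = 0.031). Krt7, a simple-epithelium keratin, rose with amiodarone (1.18 ± 0.29, adjusted p = 0.0068), and Gpm6a, a membrane glycoprotein, with amiodarone (0.81, adjusted p = 0.0077) and ivabradine (0.63, adjusted p = 0.026). Krt18 rose with ivabradine (0.76 ± 0.27, adjusted p = 0.046), while its partner Krt8 was not called with any drug (-0.43 to 0.35).

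Ezr, ezrin, which ties the membrane to actin, rose with all 6 drugs, by 0.17 ± 0.06 (ivabradine, adjusted p = 0.045) to 0.32 ± 0.06 (propranolol, adjusted p = 0.0013). Single comparisons called 6.98% (propranolol) to 10.6% (lidocaine) of all tested genes higher. Clu, a secreted chaperone that many cells make, fell with propranolol (97.3 ± 4.95 against 158 ± 42.5 FPKM in controls, -0.65 ± 0.16, adjusted p = 0.0069), metoprolol, lidocaine and amiodarone. Neither followed Upk3b, from which Ezr ranked 1849th and Clu 8771st, while Krt7 ranked 4th, Efemp1 5th and Gpm6a 7th. Bnc1, Muc16 and Gata5 were below the filter. Bnc1, a zinc-finger factor of mesothelium, was at 0.44, 0.37 and 0.31 FPKM with amiodarone, against 0.04, 0.21 and 0.01 FPKM in controls.

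**Figure D4:**
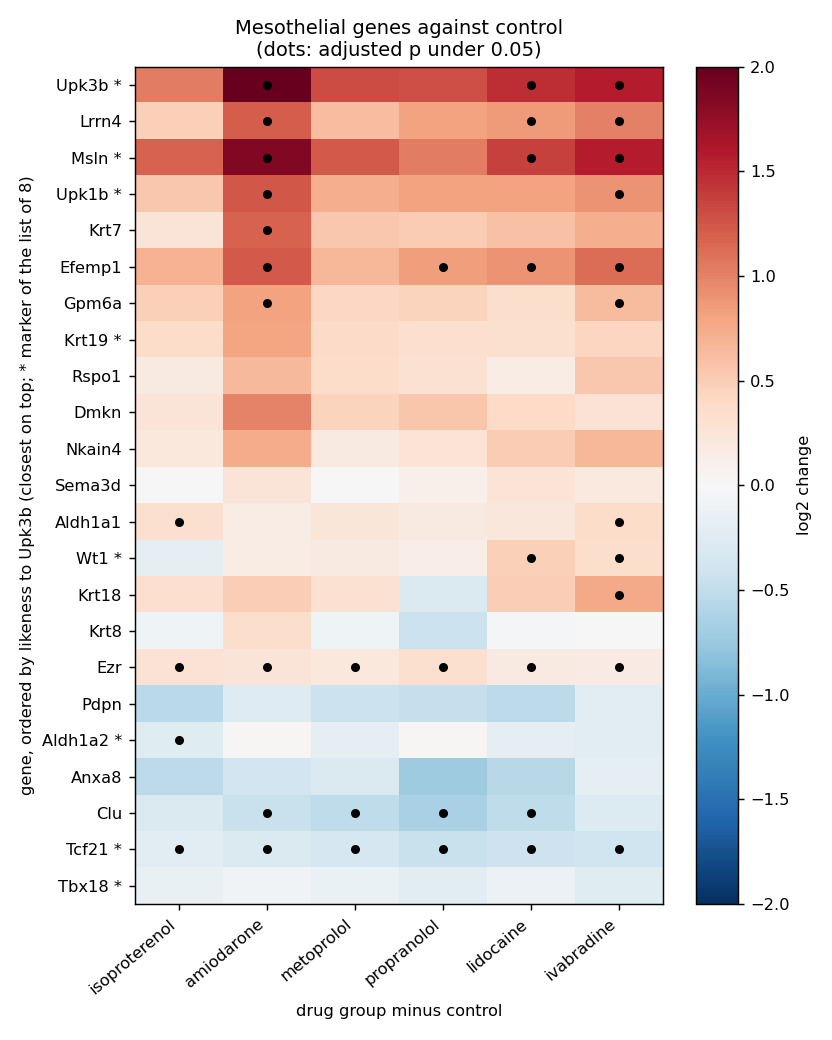
Change against control (colour, log2 scale of FPKM + 1, drug minus control) of the 8 markers, starred, and 15 other mesothelial genes, 1 row per gene in order of likeness to Upk3b, closest on top, and 1 column per drug. Dots mark an adjusted p under 0.05. Upk3b, Lrrn4, Msln, Upk1b, Krt7 and Efemp1 head the rows in red, up to 2.01 for Upk3b with amiodarone. Clu, Tcf21 and Tbx18 close the rows in blue.

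Lists of cells that descend from the epicardium moved otherwise. Of 10 fibroblast genes, all tested, 5 fell in the mean of the drug groups and 0 rose (median -0.34), where 34.0% of all genes fell and 11.6% rose (median -0.09), Vim by 0.33 ± 0.07 (adjusted p = 0.00097), Postn by 0.40 (adjusted p = 0.0092), Dcn by 0.26 (adjusted p = 0.015) and Lum by 0.40 (adjusted p = 0.024). The list summed to 2209 to 3229 FPKM in drug libraries, and to 2326, 3911 and 3679 FPKM in controls 1 to 3, so that control 1 lay within the drug libraries. Of 5 macrophage genes tested, 4 fell and 0 rose in the same comparison (median -0.65), and their sum was 19.2 to 58.3 FPKM in drug libraries and 40.4, 71.5 and 79.3 FPKM in controls 1 to 3. The part of macrophage RNA in the fibroblast values was not tested. Of 12 genes of the transition by which epicardial cells leave the sheet, 7 fell and 2 rose (median -0.23), beside the same 34.0% and 11.6% of all genes. No list was recomputed after rescaling, which moved the share of higher calls from 25.5% to 52.9% in the mean of the drug groups. Snai1, a repressor of epithelial adhesion, fell by 0.74 ± 0.11 (adjusted p = 1e-04), Tgfb1 by 0.27 (adjusted p = 0.00039), and Cdh2, a cadherin that heart muscle makes too, rose by 0.46 ± 0.06 (adjusted p = 2e-05), as did Tgfbr3 by 0.19 (adjusted p = 0.0085). Of 9 mural genes 1 rose, Abcc9 (0.45 ± 0.09, adjusted p = 0.0010), and 0 fell (median -0.02), where 11.6% of all genes rose and 34.0% fell. Which cells the Abcc9 RNA came from was not tested. Acta2, smooth muscle actin, fell with isoproterenol (-0.72 ± 0.13, adjusted p = 0.00047) and rose with ivabradine (0.46, adjusted p = 0.012), propranolol (0.44, adjusted p = 0.017) and amiodarone (0.37, adjusted p = 0.036).

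Lung has mesothelium of its own, so the 2 libraries with lung transcripts bear on the surface genes. The 9 alveolar type 2 genes summed to 272 FPKM in amiodarone 2 and 18.2 in lidocaine 1, and to 6.39 to 8.47 FPKM in the other drug libraries and in controls. The 4 alveolar type 1 genes summed to 17.5 FPKM in amiodarone 2 and to 2.15 to 4.27 elsewhere. Amiodarone 2 was not the top amiodarone library for Upk3b, Msln or Upk1b, and lidocaine 1 was the lowest lidocaine library for all 3. Krt19 was highest of the amiodarone libraries in amiodarone 2, at 5.92 FPKM, as were Krt7 (3.18 FPKM), Krt8 (4.89), Krt18 (8.27) and Nkain4 (5.21) of the other mesothelial genes, and the part of lung RNA in these levels was not tested. Without both libraries the amiodarone change was 1.99 for Upk3b (adjusted p = 0.031), 1.93 for Msln (adjusted p = 0.033) and 1.36 for Upk1b (adjusted p = 0.020). In lidocaine the change without them was 1.57 for Upk3b and 1.53 for Msln (adjusted p = 0.050 and 0.052, just past the threshold), and 1.01 for Upk1b, which was then called (adjusted p = 0.042). With Sftpc as a covariate all 17 calls of a marker with a drug were kept. That term rests on the 2 libraries with lung transcripts, so it could hardly move calls with the other drugs. Aldh1a2 was highest in amiodarone 2, at 33.2 FPKM, and its amiodarone change was 0.02 with that library and -0.05 without both.

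The airway list says little of airway RNA, as 5 of its 6 genes were in the table and only 1, Tppp3, passed the filter. The sum of the 5 ran from 25.5 to 43.7 FPKM in drug libraries and 46.2 to 49.7 FPKM in controls. The club cell gene Scgb1a1 was at 0.13 or less. Bladder epithelium is the other main site of uroplakins, and its genes were at low levels. Upk3a stood at 0 to 0.05 FPKM and Upk2 at 0 to 0.07 FPKM, and the pan-epithelial gene Epcam at 0.11 or less. Upk1a, the remaining gene of that family, was at 0.43 to 1.16 FPKM in drug libraries and 1.42 to 1.57 FPKM in controls. Upk1b had 0.49, 1.22 and 0.10 FPKM in the same controls. Upk1a was called lower with each of the 6 drugs, and single comparisons called 19.1% (ivabradine) to 26.6% (lidocaine) of all tested genes lower. The share of genes called lower with all 6 drugs was not computed. The part of bladder RNA in these levels was not tested.

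Epidermal keratins split the libraries along another line. In 8 libraries, propranolol 2 and 3 and all of lidocaine and ivabradine, Krt5 stood at 0.30 to 0.64 FPKM and Krt6a at 0.18 to 0.47, and both were listed at 0 in the other 13, controls included. Krt17 was at 0.20 to 0.66 FPKM in the 8 and at most 0.04 elsewhere. The 5 general epithelial genes summed to 1.91 to 3.34 FPKM in the 8 libraries. Wt1 was 7.31 to 9.96 FPKM in them, against 4.57 to 7.97 in the other 10 drug libraries and 5.98 to 6.94 in controls. For lidocaine and ivabradine the drug and the keratin set cannot be told apart, since no library of these groups lies outside it and no control inside. A term for the set was chosen after the data were examined and can be estimated only from propranolol 1 against propranolol 2 and 3. With it the lidocaine and ivabradine changes were -0.39 and -0.30 for Upk3b (adjusted p = 0.76 and 0.85), -0.46 and -0.26 for Msln (adjusted p = 0.72 and 0.87) and 0.18 and 0.06 for Wt1 (adjusted p = 0.55 and 0.88). Tcf21 then stood at -0.46 with both (adjusted p = 0.033 with lidocaine and 0.056 with ivabradine). The isoproterenol, amiodarone and metoprolol changes could not move with the term, since the set holds no library of these groups or of the controls. Msln was called with isoproterenol (adjusted p = 0.033), and Upk3b and Msln with metoprolol (adjusted p = 0.023 and 0.030). Leaving out propranolol 1 instead gave these same calls (adjusted p = 0.033, 0.023 and 0.030). With the term, the Wt1 difference between isoproterenol and the other 5 drugs was -0.29 (adjusted p = 0.14), and that of Tcf21 0.19 (adjusted p = 0.15). The F test over 7 groups with the term no longer called Wt1 (adjusted p = 0.056). Leaving out the 5 libraries with transcripts of other tissues kept 7 of the 17 calls, of which Upk1b with amiodarone (1.12, adjusted p = 0.046) was the surface gene, while Upk3b (1.61, adjusted p = 0.055) and Msln (1.56, adjusted p = 0.050) with amiodarone fell just short.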

How the data were processed

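The authors deposited FPKM values (2 decimals), 21 libraries read on a BGISEQ-500, and the submitters' processing notes name HISAT, Bowtie2 2.2.5 and mm9 without saying which step used which. The counter, the annotation and any filter are not given in the sources used here, and the labels' protocols name poly(A) selection or rRNA depletion without saying which was used. Files without counts give no absolute depth and no counting interval. From 12 genes of low value the relative depth of libraries was 0.970 to 1.03, with no value for ivabradine 1. Of the values, 58.9% were whole within a tolerance of 0.08, too few to recover reads. The estimate kept only ratios near whole multiples of a step set by the values themselves. Its range is therefore narrow by construction and does not show that depths were equal.

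Values were analysed as log2(FPKM + 1). Genes at 1 FPKM in at least 3 libraries, 12433 of 18762, entered limma 3.58.1 (R 4.3.3) with 1 mean per group over all 21 libraries, 14 residual degrees of freedom, empirical Bayes moderation with a trend, and Benjamini-Hochberg adjustment within each comparison at 0.05. The script was tested on simulated data. Lists came from general knowledge. The members, lists and named genes were chosen with earlier results of these data known, so none is independent support. All 8 markers are named, with up to 8 genes of the mesothelial and retinoic acid lists and up to 4 of each other list, by smallest p of the F test over the 7 groups, and the 3 nearest genes by likeness. Promoters were printed for those of the 4 markers of smallest p that the RefSeq table holds. For 1 gene that this rule names, the result is not reported here. Krt6a and Krt17, the further mentions of Bnc1, and the term for libraries with Krt5 above 0.1 FPKM were chosen after their values were seen. Alternatives were a pseudocount of 0.1, no filter or 5 FPKM, median-of-ratios rescaling, the compared groups alone, moderation that was robust or had no trend, a block for the number in the title, a Sftpc covariate, and leaving out libraries. Other values were computed with Python 3.11.15.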

Additional observations from a re-analysis of the deposited data

Results flagged for a closer look

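The markers Wt1 and Tcf21 differed between isoproterenol and the mean of the 5 anti-arrhythmic groups by a test of the difference itself. The Wt1 difference was -0.4465 on the log2 scale (isoproterenol minus the others, limma adjusted p = 0.0011), and it kept its sign and its side of the threshold on leaving out any single library. For Tcf21 the difference was 0.1619 (adjusted p = 0.030), and it missed the threshold without isoproterenol 1 or isoproterenol 3. With the term for libraries with epidermal keratins, chosen after the data were seen, neither passed, at -0.29 for Wt1 (adjusted p = 0.14) and 0.19 for Tcf21 (adjusted p = 0.15). The size of the difference between isoproterenol and each single drug was not tested for these genes.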

How the results depend on the processing

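Each of the 80 marker results was recomputed under up to 33 other settings, which gave 2604 values. Of these 2413 kept direction and side of the threshold, 78 fell short of it, 71 newly passed it and 42 changed sign. Causes were not tested. Upk1b and Tbx18 have no value with the 5 FPKM filter. The title numbers did not pair libraries (correlations of deviations between same-numbered libraries -0.54 to 0.29, best match of the same number in 3 of 21). With the number as a replicate block, 3425 genes were called with amiodarone (3608 without) and 5514 in the mean of the 6 drugs (5677 without), and no call of a marker changed.

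Without the 5 libraries with transcripts of other tissues, genes called fell to 1764 (isoproterenol, of 4254), 899 (amiodarone, of 3608), 2532 (metoprolol, of 3910), 1128 (propranolol, of 3332), 2693 (lidocaine, of 4615), 1994 (ivabradine, of 3358), 3553 (mean of 6, of 5677), 1181 (isoproterenol against the other 5 drugs, of 2831), 1593 (F test of 7 groups, of 4962) and 10 (F test of 5, of 132). Without amiodarone 2 and lidocaine 1 they were 1927 (amiodarone) and 48 (F test of 5), without a filter 76 (F test of 5), and with the compared groups alone 1616 (ivabradine). With the keratin term they were 1237 (propranolol), 983 (lidocaine), 322 (ivabradine), 669 (isoproterenol against the other 5) and 17 (F test of 5). Leaving out 1 library gave 2778 to 4539 (isoproterenol), 2038 to 3945 (amiodarone), 2388 to 4263 (metoprolol), 2000 to 3686 (propranolol), 2217 to 3827 (ivabradine), 1593 to 3237 (isoproterenol against the other 5) and 70 to 139 (F test of 5). The lowest came without isoproterenol 3 (both isoproterenol comparisons), amiodarone 2, metoprolol 1, control 2 (propranolol), ivabradine 3, and amiodarone 2 or propranolol 3 (F test of 5). The count also moved by over 1.5 times without control 2 (2107 amiodarone, 2410 metoprolol), propranolol 2 (2167 propranolol) and, in the F test of 5, amiodarone 1 (77), propranolol 1 (84), lidocaine 1 (84) or lidocaine 2 (80).

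Signs changed with the keratin term in propranolol (Msln -0.19, Wt1 -0.061, Krt19 -0.87), lidocaine (Msln -0.46, Upk3b -0.39, Krt19 -1.49, Upk1b -0.21), ivabradine (Msln -0.26, Upk3b -0.30, Krt19 -1.38, Upk1b -0.11), the mean of 6 (Krt19 -0.37) and isoproterenol against the other 5 (Msln 0.75, Upk3b 0.49, Krt19 0.89, Upk1b 0.19). Aldh1a2 with amiodarone, at 0.02, gave -0.050 without amiodarone 2 and lidocaine 1, -0.087 without the 5 libraries, -0.029 with the Sftpc covariate and -0.050 to 0.10 on leaving out 1 library. With propranolol it gave -0.044 without the 5 libraries and -0.0068 to 0.073 on leaving out 1. Leaving out 1 library moved Krt19 with propranolol between -0.13 and 0.94, and in isoproterenol against the other 5 drugs Krt19 between -0.27 and 0.063 and Tbx18 between -0.094 and 0.080. That Tbx18 difference, -0.0014, was 0.012 on rescaling, 0.0045 without amiodarone 2 and lidocaine 1, 0.091 without the 5 libraries and 0.0026 with the Sftpc covariate. FPKM without counts limit what can be said of genes near 0, Upk1b among them.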
